A study of Solanum lycopersicum with 10 samples.

Results

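The comparison described here is that of young tomato leaves sprayed with a synthetic auxin against leaves sprayed with mock solution. Leaf primordia were collected 3 h after the spray, and 3 picloram libraries were set against 3 mock libraries. Of the 35767 loci in the deposited table, 14410 reached 10 normalized counts in at least 2 of these 6 libraries and were tested. Treated libraries count toward that minimum, so a locus that is low in mock enters mostly where it is higher under picloram.

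The study followed the transcript response to auxin analogs in tomato (Solanum lycopersicum) in separate leaf and root experiments, with 10 libraries in all. Picloram leaves came from M82 plants that had grown for 3 weeks in a greenhouse and received 1 µM picloram, an auxin analog, for 3 h. Mock leaves came from M82 plants of the same age that received the mock spray. Each collection held 15 primordia of leaf 5 at the developmental stage called P5, and libraries were made with a kit that reads the 3′ end of transcripts. The root libraries, used here only for the difference of responses and for the shared estimate of spread, came from plate-grown M82 seedlings with 1 µM 2,4-D (n = 2) or mock (n = 2) for 3 h. Nothing in the labels says whether replicates came from separate plants, trays or days, so p-values measure the spread between these samples.

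Auxin acts by bringing Aux/IAA repressors to TIR1/AFB F-box receptors, which mark them for destruction and free the auxin response factors (ARFs) that the repressors hold. Aux/IAA genes and the GH3 genes, whose enzymes conjugate auxin to amino acids, are themselves classic early targets, so the pathway damps its own signal. In a developing compound leaf such as that of tomato, auxin maxima mark where leaflets and lobes grow out, with KNOX, TCP and boundary factors setting how long the margin keeps forming organs.

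The table names loci by Solyc identifier only and carries no gene names. Loci were therefore placed in 48 lists of 464 identifiers recalled from surveys of tomato gene families. Of these, 461 were in the table and 316 were tested. Placement was not checked gene by gene, and "listed as" marks a role that rests on this recall. Values of paralogs that share near-identical sequence are uncertain, because reads could be split between copies, as among the light-harvesting, phenylalanine ammonia-lyase, polyphenol oxidase and gibberellin oxidase neighbours.

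Leaf libraries totalled 1.83 to 2.06 M normalized counts, and the 10 most abundant loci took 4.40% to 5.58% of a library. Over tested loci, log2 profiles correlated at 0.928 to 0.951 within a group and at 0.883 to 0.904 between picloram and mock libraries. Marker lists were read beside the tissue label, without root values for comparison. Summed light-harvesting levels were 9464 to 11649 under picloram and 15034 to 16816 in mock, and the 9 loci of the YABBY list, transcription factors of lateral organs, summed to 928 to 1083 under picloram and 988 to 1289 in mock. The 9 loci of the KNOX and BELL list, also chosen as shoot meristem markers, summed to 867 to 1020 under picloram and 840 to 1095 in mock. Much of this lay at Solyc07g007120, at 439.7, 516 and 643 under picloram and 600.0, 615 and 453 in mock. The sum therefore does not stand for every member and is no measure of meristem content. Of 12 regulators of shoot meristems and flowering, 0 were tested. They summed to 12.1 to 19.5 under picloram and to 8.42 and 18.9 in mock 1 and 3. In mock 2 the sum was 2481, of which 2469.6 lay at Solyc03g118160, named after its values were seen. That locus was at 7.76, 8.53 and 3.81 under picloram and at 0.703 and 1.04 in mock 1 and 3, and 3 members of the list were at 0 in all 6 libraries.

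Values below are normalized counts in libraries 1, 2 and 3 of each group. Differences are picloram minus mock after taking log2(value + 1), a scale that shrinks the changes of loci with low values, with their standard error, and adjusted p-values come from limma with Benjamini-Hochberg adjustment over all 14410 tested loci. A locus was called at an adjusted p under 0.05.

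Picloram moved 1494 loci past that threshold, 10.4% of those tested. Of these 720 were higher (5.00% of tested loci) and 774 were lower (5.37%), with 3609 loci at an unadjusted p under 0.05. The rises were larger than the falls in size: called loci had a median difference of 1.26 where higher and of -0.82 where lower, and 476 rose but 283 fell by more than 2-fold. Among the 296 loci with a mean of at least 1000 normalized counts, 23 rose and 63 fell. The median over all tested loci was 0.002. The balance of directions depended on scaling: 48.2% of calls were higher as deposited, and 61.8% (915 higher, 565 lower) when all libraries were scaled to equal totals, which shifted the median of all loci to 0.086. Picloram and mock libraries did not overlap at 4206 loci, 29.2% of those tested, and 1485 of the called loci were among them.

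**Figure D1:**
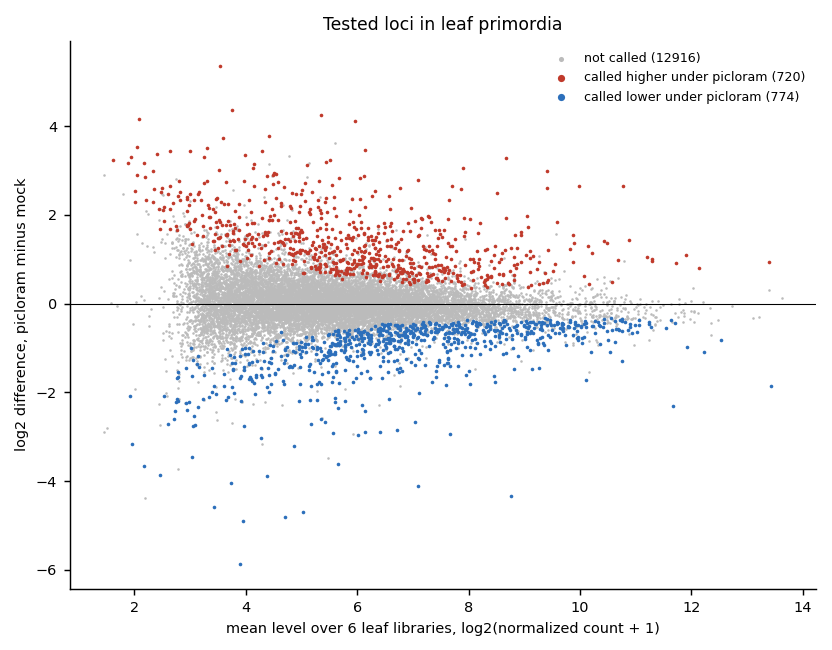
Each point is 1 of 14410 tested loci, with its mean level over the 6 leaf libraries on the x axis (log2 of normalized count + 1) and the log2 difference of picloram minus mock on the y axis. Red points are the 720 loci called higher and blue points the 774 called lower; the rises reach farther from 0 among loci of low and middle level.

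Among the listed loci, 70 were higher and 20 were lower. Counts of called members below are to be read beside all tested loci, of which 10.4% were called, 5.00% higher and 5.37% lower. Since these are bulk samples, fewer cells of a type and less RNA per cell cannot be told apart in any of these differences. For 10 of the 70 higher loci no mock library reached 10, and for 1 of the 20 lower loci no picloram library did; these 11 entered the test only through the group where they were high.

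**Figure D2:**
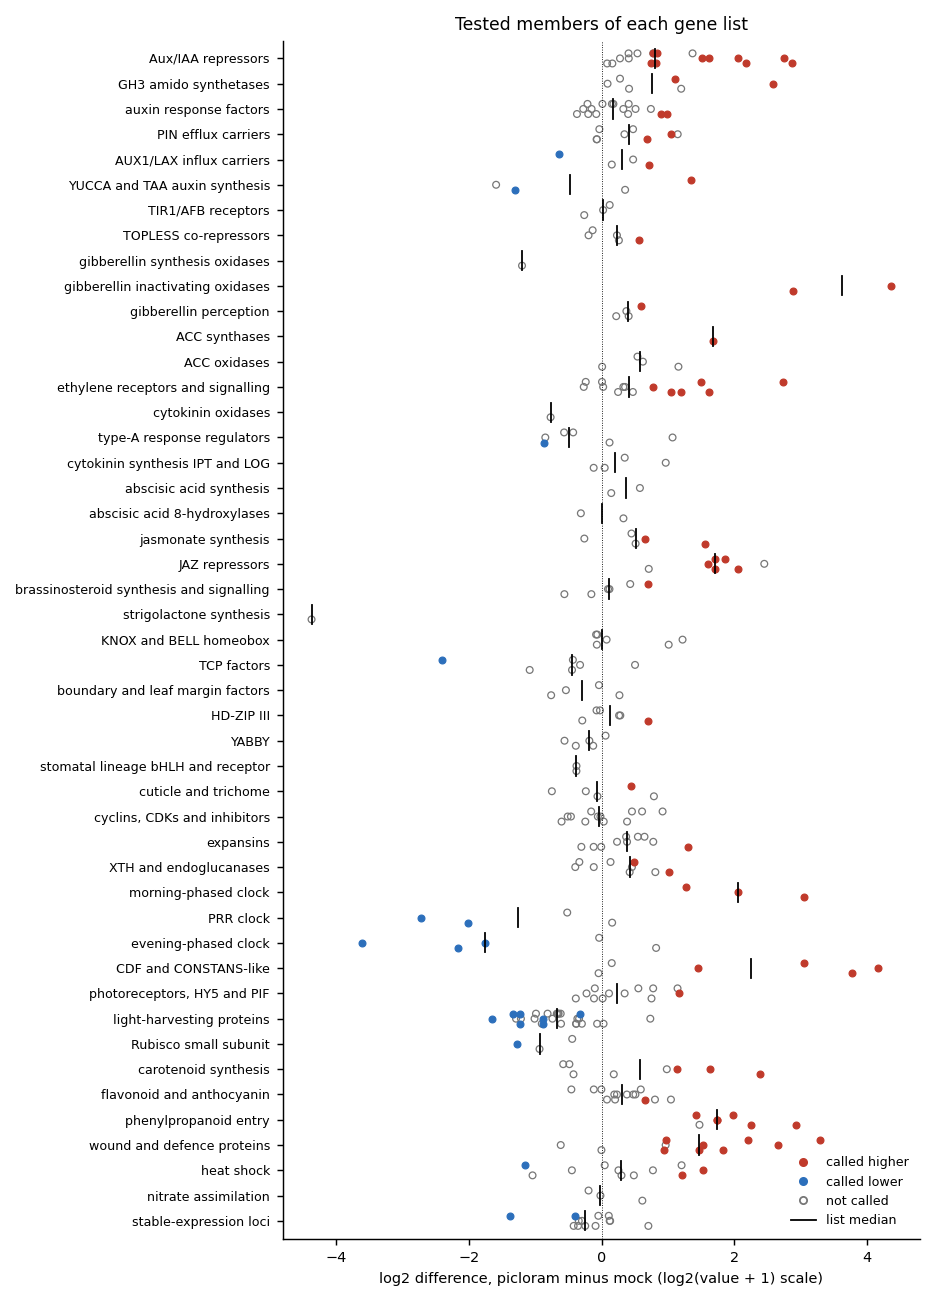
Each row is a gene list and each point a tested member at its log2 difference, picloram minus mock. Filled points passed the test (red higher, blue lower), open points did not, and the bar is the list median; jasmonate repressors, phenylpropanoid enzymes, morning clock loci and gibberellin inactivating enzymes lie to the right and evening clock loci and light-harvesting proteins to the left.

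Within the auxin circuit, the repressors gave the most calls. Of 21 Aux/IAA loci 18 were tested, 10 rose and 0 fell, and all 18 differences were above 0 (median 0.80, against 0.002 over all tested loci). The share called was 55.6%, against 10.4% of all tested loci. Solyc03g120380 had 70.7, 55.8 and 42.3 normalized counts under picloram and 12.98, 2.43 and 8.34 in mock, a difference of 2.87 ± 0.51 (SE, adjusted p = 0.00339). Solyc07g008020 had 83.5, 89.4 and 73.5 under picloram and 13.4, 24.6 and 20.6 in mock, a difference of 2.05 ± 0.37 (SE, adjusted p = 0.00372). Every picloram library stood above every mock library at both loci. Solyc06g084070 had 38.9, 22.2 and 35.9 under picloram and 3.32, 5.11 and 3.30 in mock (2.75 ± 0.33 SE, adjusted p = 0.000271), and Solyc09g083280 had 157, 151 and 138 under picloram and 21.9, 36.8 and 41.3 in mock (2.17 ± 0.21 SE, adjusted p = 5.77e-05). Again the groups did not overlap. Solyc06g084070 was below 10 in all mock libraries and so entered the test only through picloram. The other 6 that rose did so by 0.74 to 1.63. Of them Solyc08g021820, named after its values were seen, had no mock library at 10 and entered the test only through picloram. The list held 7 loci that rose without picloram 1, 2 or 3 or mock 2. It held 8 without mock 3, against 10 with all libraries. The repressor of highest level, Solyc04g076850, named after its values were seen, averaged 1275 under picloram and 1146 in mock and was not called (adjusted p = 0.448).

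GH3 loci showed the same direction in fewer members: 6 of 9 were tested, 2 rose and 0 fell (33.3% called, against 10.4% of all tested loci). Solyc02g092820 had 818, 586 and 392 normalized counts under picloram and 96.2, 115 and 75.2 in mock, a difference of 2.59 ± 0.25 (SE, adjusted p = 5.77e-05). Solyc07g063850 had 480.0, 499 and 564 under picloram and 229, 228 and 259.8 in mock, a difference of 1.10 ± 0.15 (SE, adjusted p = 0.000654). Groups were apart at both loci, and the picloram libraries of Solyc02g092820 were themselves spread, with library 1 highest and library 3 lowest.

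Receptors and co-repressors gave 1 call. None of 3 TIR1/AFB receptor loci was called by limma, with 0 at an unadjusted p under 0.05, and the most abundant, Solyc09g074520, had 586, 449 and 482 under picloram and 709.9, 667 and 462 in mock, with overlapping groups (adjusted p = 0.349). Of 5 tested TOPLESS loci, co-repressors that Aux/IAA proteins recruit, 1 rose: Solyc03g116750 had 160.1, 127 and 139 under picloram and 108, 90.0 and 90.2 in mock (0.56 ± 0.14 SE, adjusted p = 0.021), a small shift without overlap. Among 16 tested ARF loci of 22 listed, 2 rose and 0 fell (12.5% called, near the 10.4% of all tested loci). Solyc01g103050 had 126, 176 and 151 under picloram and 75.9, 67.5 and 83.3 in mock (0.98 ± 0.17 SE, adjusted p = 0.0036), and Solyc05g047460 had 162, 122 and 121 under picloram and 71.5, 67.3 and 75.7 in mock (0.90 ± 0.16 SE, adjusted p = 0.00345). The groups did not overlap at either. The other 14 differed by -0.37 to 0.74, and with equal library totals 4 ARF loci rose.

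Auxin transport and synthesis were split. The share called was 25% for PIN loci, 50% for influx carriers and 50% for synthesis, against 10.4% of all tested loci. Of 8 tested PIN loci, which export auxin from cells, 2 rose: Solyc10g078370 had 283, 239.9 and 311 under picloram and 139, 119 and 145 in mock (1.04 ± 0.14 SE, adjusted p = 0.000747), and Solyc03g118740 had 160.3, 126 and 173 under picloram and 117, 77.4 and 91.0 in mock (0.69 ± 0.18 SE, adjusted p = 0.0285). The groups were apart at both, by a wider gap at the first. Of 4 tested influx carriers 1 rose and 1 fell. Solyc09g014380 had 148, 140.0 and 166 under picloram and 75.3, 101 and 99.5 in mock (0.72 ± 0.14 SE, adjusted p = 0.0071), while Solyc11g013310 had 19.6, 20.5 and 16.5 under picloram and 30.9, 29.4 and 29.6 in mock (-0.65 ± 0.19 SE, adjusted p = 0.0486). Neither pair of groups overlapped. In the synthesis list, 4 of 9 loci were tested. Solyc06g071640, listed as an aminotransferase of the first step (TAA), rose, with 53.2, 62.7 and 84.6 under picloram and 23.0, 18.3 and 38.1 in mock (1.34 ± 0.33 SE, adjusted p = 0.022). Solyc06g065630, listed as a flavin monooxygenase of the second step (YUCCA), fell, with 14.1, 10.8 and 10.5 under picloram and 29.9, 25.7 and 36.4 in mock (-1.30 ± 0.37 SE, adjusted p = 0.0413). In both cases the highest library of the lower group stayed below the lowest of the other. The call of Solyc11g013310 ended in 16 of 21 alternatives and that of Solyc06g065630 in 12 of 21. For both, these included equal library totals, no minimum and robust moderation. Calls that ended with 1 library left out, with the range of adjusted p over the alternatives, were those of Solyc03g118740 without picloram 1 or 3 or mock 2 or 3 (0.00922 to 0.105), Solyc11g013310 without picloram 1, 2 or 3 or mock 1, 2 or 3 or root 2,4-D 1 or 2 or root mock 1 or 2 (0.0307 to 0.182), Solyc06g071640 without picloram 2 or 3 or mock 1 or 2 (0.0035 to 0.0918), Solyc06g065630 without picloram 1, 2 or 3 or mock 1, 2 or 3 or root mock 1 or 2 (0.00449 to 0.116) and Solyc03g116750 without picloram 1 or 3 or mock 2 or 3 (0.0117 to 0.0808), the TOPLESS locus.

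The gibberellin enzymes gave one of the widest changes. Gibberellins promote growth, GA2-oxidases inactivate them and GA20- and GA3-oxidases make them. Of 6 loci in the inactivating list 2 were tested and both rose. Solyc07g061730 had 63.1, 52.8 and 65.3 normalized counts under picloram and 3.41, 1.19 and 1.68 in mock, a difference of 4.37 ± 0.46 (SE, adjusted p = 0.000106). Its neighbour by identifier, Solyc07g061720, had 55.3, 65.4 and 60.2 under picloram and 11.1, 9.68 and 3.32 in mock, a difference of 2.89 ± 0.45 (SE, adjusted p = 0.00156). Both sat near or below 10 in mock and above 50 in every picloram library. No mock library reached 10 at the first and only 1 did at the second, so both met the minimum only with picloram libraries. That both tested loci rose was therefore partly set by the minimum. In the synthesis list 1 of 6 was tested, Solyc03g006880, with 1.56, 9.79 and 6.22 under picloram and 12.2, 10.8 and 14.5 in mock. It was not called by limma (adjusted p = 0.136), although its unadjusted p was under 0.05. Of 4 loci for perception 1 rose, Solyc09g074270, listed as a GID1 receptor, with 216, 204 and 202 under picloram and 160.3, 142 and 115 in mock (0.59 ± 0.15 SE, adjusted p = 0.0232). Its groups were apart, but its call ended when 1 library was left out: Solyc09g074270 without picloram 1, 2 or 3 or mock 2 or 3 (0.0101 to 0.0802).

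Ethylene is perceived by receptors that repress the pathway until they bind the gas, and EBF F-box proteins degrade the EIL transcription factors that drive the response. Receptors and EBF genes are known ethylene targets that dampen the signal. In this list 14 of 16 loci were tested, 6 rose and 0 fell: 3 of 7 receptors, 1 of 3 EIL factors, 2 of 2 EBF loci and 0 of 2 loci listed as CTR1 or EIN2. The share called was 42.9%, against 10.4% of all tested loci. Solyc06g053710, listed as a receptor, had 105, 87.3 and 79.3 under picloram and 17.6, 38.9 and 34.2 in mock (1.62 ± 0.26 SE, adjusted p = 0.00191). Solyc12g009560, listed as an EBF protein, had 896, 523 and 479 under picloram and 241, 324 and 236 in mock (1.20 ± 0.22 SE, adjusted p = 0.00412). At both, all picloram libraries were higher, and picloram 1 was highest. Calls at the receptors Solyc09g075440 and Solyc09g089610 were less stable. Solyc09g075440 had 50.3, 63.8 and 69.1 under picloram and 4.59, 3.54 and 29.9 in mock (2.74 ± 0.70 SE, adjusted p = 0.0262), with mock 3 well above the other mock libraries. Solyc09g089610 had 21.2, 16.04 and 18.6 under picloram and 6.83, 6.02 and 5.04 in mock (1.50 ± 0.42 SE, adjusted p = 0.038), below 10 in every mock library. That receptor locus therefore entered the test only through picloram.

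Enzymes of ethylene synthesis were scarcely measured. Of 7 ACC synthase loci, which make the ethylene precursor, 1 was tested: Solyc08g081550 had 4.03, 12.2 and 13.4 under picloram and 2.22, 2.39 and 1.64 in mock (1.68 ± 0.49 SE, adjusted p = 0.0453). All picloram libraries were above mock, but only picloram 2 and 3 reached the minimum, by a small margin. Picloram 1 and all mock libraries were well below it, so this locus entered the test only through picloram. That the 1 tested ACC synthase rose was therefore partly set by the minimum. None of 4 tested ACC oxidases, which turn the precursor into ethylene, was called by limma, with 2 at an unadjusted p under 0.05, and the most abundant, Solyc02g081190, had 397, 271 and 285 under picloram and 235, 281 and 151 in mock, with overlap (adjusted p = 0.261). Calls that ended with 1 library left out were those of Solyc09g075440 without picloram 1, 2 or 3 or mock 1 or 2 (0.00202 to 0.11), Solyc09g089610 without picloram 1, 2 or 3 or mock 2 or 3 or root 2,4-D 1 or 2 (0.00987 to 0.102) and Solyc08g081550 without mock 1, 2 or 3 or root 2,4-D 1 or 2 or root mock 1 or 2 (0.0147 to 0.151), where the bracket gives adjusted p over the alternatives. The call of the EIL factor Solyc06g073720, which the naming rule did not give and which was named after its values were seen, also ended with each single library left out except mock 1 (adjusted p over the alternatives 0.00221 to 0.131). The ethylene list held 3 loci that rose without picloram 1, 2 or 3 or mock 2, against 6 with all libraries.

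Calls in the jasmonate and wound lists were all higher, at 5 of 7 JAZ, 2 of 5 jasmonate synthesis and 8 of 11 wound loci. These shares were 71.4%, 40% and 72.7%, against 10.4% called and 5.00% called higher over all tested loci. Placement is least certain for JAZ, where 4 of 12 loci lie on a chromosome that carries a RefSeq symbol of the family. JAZ proteins repress jasmonate responses and are induced by the hormone, and 5 of 7 tested JAZ loci (12 listed) rose, with 0 lower and a median of 1.71. Solyc07g042170 had 236, 281 and 252 normalized counts under picloram and 56.9, 80.5 and 101 in mock (1.71 ± 0.20 SE, adjusted p = 0.000194). Solyc03g122190 had 227, 270.0 and 258 under picloram and 67.1, 61.2 and 76.6 in mock (1.87 ± 0.32 SE, adjusted p = 0.00286). These were tight within groups and far apart between them. Solyc08g036660 had 13.7, 37.1 and 18.7 under picloram and 2.14, 7.23 and 4.93 in mock (2.06 ± 0.49 SE, adjusted p = 0.0187), and Solyc11g011030 had 96.1, 157 and 152 under picloram and 23.97, 38.00 and 68.2 in mock (1.71 ± 0.50 SE, adjusted p = 0.047). Their groups did not overlap, although the single libraries varied more. Solyc08g036660 had no mock library at 10 and entered the test only through picloram. The summed level of the 12 JAZ loci was 911 to 1417 under picloram and 285 to 533 in mock.

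In jasmonate synthesis, 5 of 6 loci were tested and 2 rose. Solyc02g085730, listed as allene oxide cyclase, had 1614, 2021 and 1271 under picloram and 615, 612 and 433 in mock (1.55 ± 0.17 SE, adjusted p = 0.000152). Solyc07g007870, listed as the reductase of the intermediate OPDA, had 72.1, 78.3 and 66.5 under picloram and 39.4, 46.8 and 50.3 in mock (0.66 ± 0.17 SE, adjusted p = 0.0269). Both had all picloram libraries above mock. The lipoxygenase loci, at the first step, were not called: 2 were tested, at -0.26 and 0.51. Among these jasmonate calls, those that ended with 1 library left out were of Solyc08g036660 without picloram 2 (0.00775 to 0.0782), Solyc11g011030 without picloram 1, 2 or 3 or mock 1 or 2 (0.000378 to 0.151) and Solyc07g007870 without picloram 1 or 2 or mock 1 or 2 (0.0146 to 0.0945), with adjusted p over the alternatives in brackets. Without picloram 2 the JAZ list had 2 loci that rose, and without mock 1 or without the mean-variance trend it had 3.

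Wound and defence proteins, many of them known jasmonate targets of tomato leaves, included the locus of highest picloram mean among the listed loci that rose, Solyc08g074620. Of 13 listed loci 11 were tested, 8 rose and 0 fell (median 1.46). Both polyphenol oxidases, enzymes that oxidize phenolics in damaged tissue, were higher in every picloram library. Solyc08g074630 had 944, 1595 and 1403 under picloram and 89.2, 141 and 174 in mock (3.29 ± 0.56 SE, adjusted p = 0.00275), and Solyc08g074620 had 3367, 5436 and 4599 under picloram and 707, 780.0 and 599.9 in mock (2.66 ± 0.47 SE, adjusted p = 0.00353). Picloram 1 was the lowest of the treated libraries at both. Solyc09g008670, listed as a threonine deaminase that depletes an amino acid in the insect gut, had 35.2, 101 and 83.2 under picloram and 15.5, 9.62 and 16.9 in mock (2.21 ± 0.60 SE, adjusted p = 0.0351). Solyc01g091170, listed as arginase, had 276, 326 and 307 under picloram and 149, 75.2 and 53.2 in mock (1.83 ± 0.47 SE, adjusted p = 0.0272). The groups were apart, with mock 1 the highest mock library for arginase. Of 4 tested proteinase inhibitors, which block insect gut enzymes, 3 rose, and the 1 tested PR1 locus, a marker of salicylate defence, was not called at -0.62 ± 0.34 (SE, adjusted p = 0.286). 

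The number of wound calls depended on single libraries. The list held 8 loci that rose with all libraries, 5 without picloram 1, and 2 without picloram 2, picloram 3, mock 2 or mock 3. It held 2 with a pseudocount of 0.5 and 4 without the mean-variance trend. Calls of named members that ended with 1 library left out were those of Solyc09g008670 without picloram 2 or 3 or mock 1, 2 or 3 (0.00177 to 0.137) and Solyc01g091170 without picloram 1, 2 or 3 or mock 2 or 3 (0.000667 to 0.0974), with adjusted p over the alternatives in brackets. The polyphenol oxidase Solyc08g074620 lost its call with robust moderation of the spread (adjusted p = 0.052). The summed level of the list was nonetheless apart between groups, at 7972, 12459.6 and 10716 under picloram and 3353, 3130 and 2962 in mock. Whether wounding during spraying or collection had a part in these values was not tested.

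**Figure D3:**
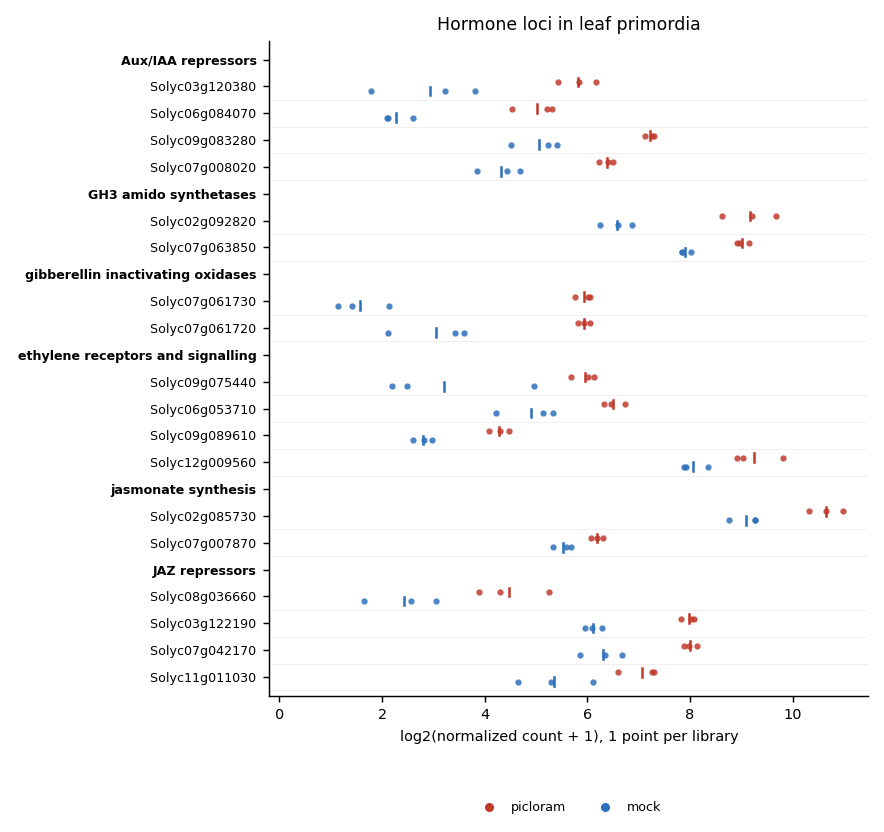
Points are single libraries (picloram red, above; mock blue, below) on a log2(normalized count + 1) axis, with group means as bars, for the called hormone loci named in the text. No locus shown has overlapping groups, but only called loci are drawn, and 1485 of all 1494 called loci had no overlap. The gap is widest at the gibberellin inactivating oxidase Solyc07g061730, which entered the test only through picloram.

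Lists of cytokinin, abscisic acid, brassinosteroids and strigolactones together gave 2 calls of 22 tested loci (9.09%), near the 10.4% of all tested loci. In those with no call by limma, the loci at an unadjusted p under 0.05 numbered 1 of 4 for cytokinin synthesis, 0 of 1 for cytokinin oxidases, 0 of 2 for each abscisic acid list and 1 of 1 for strigolactones. Type-A response regulators, which cytokinin induces and which dampen its signal, had 1 lower and 0 higher of 6 tested. Solyc05g006420 had 83.9, 54.2 and 49.9 under picloram and 94.2, 116 and 128 in mock (-0.86 ± 0.20 SE, adjusted p = 0.015). Its groups did not overlap, though picloram 1 came near mock 1. None of 4 tested loci for cytokinin synthesis was called, and the most abundant, Solyc10g084150, had 196, 127 and 148 under picloram and 165, 156 and 129 in mock (adjusted p = 0.94). The 1 tested cytokinin oxidase, Solyc08g061930, had 7.09, 17.2 and 16.7 under picloram and 26.2, 17.8 and 24.3 in mock (adjusted p = 0.331). Neither difference passed, the first with full overlap. In abscisic acid synthesis and breakdown, 0 of 2 and 0 of 2 tested loci were called: Solyc02g090890 had 54.4, 55.0 and 34.0 under picloram and 50.5, 42.2 and 35.1 in mock (adjusted p = 0.853), and Solyc01g108210 had 11.2, 11.9 and 12.3 under picloram and 22.4, 9.71 and 15.0 in mock (adjusted p = 0.699). Both overlapped.

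Of 6 tested brassinosteroid loci 1 rose, Solyc04g051510, listed as the receptor BRI1, with 59.7, 54.6 and 57.7 under picloram and 31.3, 31.5 and 42.8 in mock (0.70 ± 0.19 SE, adjusted p = 0.0302). Groups were apart. In strigolactone synthesis the 1 tested locus, Solyc08g062950, was listed at 0 in all 3 picloram libraries and at 0, 97.0 and 90.1 in mock. It was not called, at an adjusted p of 0.05003, and passed in 5 alternatives. In mock 1 it was at 0 as well, so the groups overlap at 0. Calls in these lists that ended with 1 library left out were those of Solyc05g006420 without picloram 2 or 3 or mock 2 or 3 (0.00409 to 0.0641) and Solyc04g051510 without picloram 1, 2 or 3 or mock 1 or 2 (0.0179 to 0.0919), with adjusted p over the alternatives in brackets.

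Loci of the circadian clock moved in opposite directions by phase. As worked out in Arabidopsis, the plant clock runs on morning-expressed MYB factors and evening-expressed genes that repress each other through the day, with PRR genes in between, and its outputs include CDF and CONSTANS-like factors of photoperiod. All 3 morning-phased loci were tested and rose (100% called, against 10.4% of all tested loci). Of them Solyc10g084370 had no mock library at 10 and entered the test only through picloram. The share that rose was therefore partly set by the minimum. Solyc10g005080, listed as the MYB factor LHY, had 766, 702 and 599 normalized counts under picloram and 84.1, 89.6 and 71.8 in mock, a difference of 3.06 ± 0.15 (SE, adjusted p = 6.96e-07). Every picloram library was over 6 times every mock library. Solyc10g084370, listed as a related MYB factor (RVE8), had 36.3, 32.5 and 33.0 under picloram and 8.12, 9.77 and 4.98 in mock (2.06 ± 0.44 SE, adjusted p = 0.0104). Solyc01g068560, listed as the LNK coactivator of those factors, had 155, 173 and 144 under picloram and 50.7, 73.2 and 72.8 in mock (1.26 ± 0.20 SE, adjusted p = 0.00191). Neither locus had overlapping groups.

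Evening-phased loci fell: of 10 listed 5 were tested, 3 fell and 0 rose (60% called, against 10.4% of all tested loci). Solyc01g005300, listed as the blue-light F-box protein FKF1, had 18.6, 10.2 and 12.5 under picloram and 213, 171 and 147 in mock, a difference of -3.61 ± 0.24 (SE, adjusted p = 3.75e-06). Solyc12g056650, listed as GIGANTEA, the partner of FKF1, had 87.6, 83.7 and 90.0 under picloram and 281, 279 and 339 in mock (-1.77 ± 0.16 SE, adjusted p = 3.62e-05). The other GIGANTEA locus, Solyc04g071990, had 7.07, 7.23 and 2.06 under picloram and 27.2, 26.6 and 22.5 in mock (-2.16 ± 0.35 SE, adjusted p = 0.00188). The groups lay far apart at each. Solyc04g071990 was below 10 in all picloram libraries and so entered the test only through mock. The 2 tested ELF3 loci, of the evening complex, were not called, at -0.04 and 0.82.

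Of 4 PRR loci 2 fell (50% called, against 10.4% of all tested loci). Solyc03g081240 had 11.1, 15.9 and 12.5 under picloram and 126, 99.99 and 60.4 in mock (-2.72 ± 0.36 SE, adjusted p = 0.000542), and Solyc04g049670 had 57.0, 70.7 and 77.2 under picloram and 338, 254 and 247 in mock (-2.02 ± 0.16 SE, adjusted p = 1.35e-05). No picloram library reached the lowest mock library at either. The other 2 PRR loci differed by -0.52 and 0.16.

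Among CDF factors, which FKF1 and GIGANTEA mark for degradation in Arabidopsis, 5 of 5 were tested and 3 rose, and the 1 tested CONSTANS-like locus of 3 rose as well. For 3 of these 4 calls, at Solyc05g007880, Solyc02g067230 and Solyc02g089540, no mock library reached 10. These loci entered the test only through picloram, so the share that rose was partly set by the minimum. Of the 6 tested loci in this list 66.7% were called, against 10.4% of all tested loci. Solyc02g067230 had 89.9, 60.9 and 87.5 under picloram and 2.30, 4.83 and 9.18 in mock (3.77 ± 0.47 SE, adjusted p = 0.00034). Solyc02g088070 had 49.7, 56.0 and 54.6 under picloram and 16.1, 18.2 and 22.6 in mock (1.46 ± 0.23 SE, adjusted p = 0.00148). Both rose without overlap, the first from values below 10. The CDF locus Solyc05g007880 was at 15.0, 18.0 and 18.3 under picloram and listed at 0 in all 3 mock libraries (adjusted p = 0.000128). The CONSTANS-like locus Solyc02g089540 had 62.8, 43.3 and 44.5 under picloram and 4.51, 4.80 and 6.02 in mock (3.05 ± 0.38 SE, adjusted p = 0.000308). The other 2 CDF loci differed by -0.05 and 0.15 and overlapped. All 12 calls in these clock and photoperiod lists held in each alternative in which the locus was tested. The labels used here give no hour of spraying or collection for either group, and a part of the hour of day in these values was not tested.

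**Figure D4:**
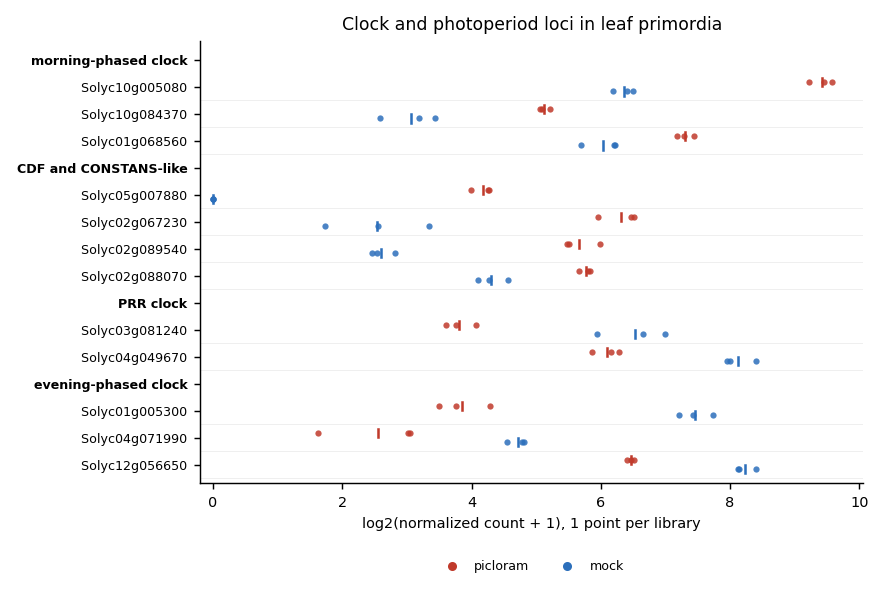
Points are single libraries (picloram red, above; mock blue, below) on a log2(normalized count + 1) axis, with group means as bars, for the 12 called clock and photoperiod loci. Picloram lies to the right of mock in the morning-phased and CDF lists and to the left in the PRR and evening-phased lists.

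In the list of light perception 1 of 12 tested loci was called (8.33%, against 10.4% of all tested loci). Solyc08g061130, listed as HY5, the bZIP factor that promotes light responses, had 92.2, 91.2 and 100.2 under picloram and 49.8, 49.3 and 28.8 in mock (1.17 ± 0.22 SE, adjusted p = 0.00455). Every picloram library was above mock. None of 7 tested photoreceptors (-0.23 to 1.14) and none of 4 PIF factors (-0.39 to 0.78) was called.

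Called photosynthesis loci were lower. The light-harvesting list holds the antenna proteins that bind chlorophyll around the photosystems. Of 28 loci 27 were tested, 7 fell and 0 rose (25.9% called), 25 of the 27 differences were below 0 (median -0.68) and 19 had no overlap between groups. Over all tested loci, 10.4% were called, 5.37% were called lower and 29.2% had no overlap in either direction. Within the row of neighbouring loci on chromosome 2, Solyc02g070950 had 52.8, 119 and 136 under picloram and 232, 308 and 378 in mock (-1.65 ± 0.37 SE, adjusted p = 0.0137), and Solyc02g070970 had 106, 162 and 111 under picloram and 260.4, 368 and 324 in mock (-1.33 ± 0.31 SE, adjusted p = 0.0163). Picloram 1 was lowest of all libraries at the first. Solyc02g070980 had 73.5, 79.7 and 117 under picloram and 151, 247 and 240.1 in mock (-1.23 ± 0.30 SE, adjusted p = 0.0205), and Solyc02g071000 had 37.6, 49.2 and 48.2 under picloram and 95.7, 127 and 97.3 in mock (-1.23 ± 0.30 SE, adjusted p = 0.0206). Each of these was lower in all picloram libraries. The smallest adjusted p of the list was at Solyc01g105050, named after its values were seen, with 408, 467 and 470.1 under picloram and 812, 854 and 805 in mock (-0.88 ± 0.10 SE, adjusted p = 0.000206).

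Of 3 tested loci for the small subunit of Rubisco, the enzyme that fixes CO2, 1 fell: Solyc02g085950 had 868, 1128 and 1379 under picloram and 2497, 2818 and 2762 in mock (-1.28 ± 0.37 SE, adjusted p = 0.0464). The other 2, at -0.94 and -0.44, were not called although all 3 loci were lower in every picloram library. The call of Solyc02g085950 ended in 12 of 21 alternatives. Among these were equal library totals, quantile normalization, robust moderation and a fit without the mean-variance trend. The number of light-harvesting loci called lower was 1 without picloram 1, 3 without picloram 2 or 3, 1 without mock 2 and 2 without mock 3. It was 11 with a pseudocount of 4 and 16, with 1 more called higher, when the leaf libraries were fitted alone, without the root libraries in the estimate of spread. Named calls that ended were those of Solyc02g070950 without picloram 1 or mock 2 or 3 (0.000123 to 0.0599), Solyc02g070970 without picloram 1 or 3 or mock 2 or 3 (0.000157 to 0.0781), Solyc02g070980 without picloram 1 or 2 or mock 2 or 3 (0.000808 to 0.0938), Solyc02g071000 without picloram 1, 2 or 3 or mock 2 or 3 (0.00152 to 0.0908) and Solyc02g085950 without picloram 1, 2 or 3 or mock 1, 2 or 3 (0.000156 to 0.168), with adjusted p over the alternatives in brackets.

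Calls among enzymes of phenolic and carotenoid synthesis were all higher. Phenylalanine ammonia-lyase (PAL) and 4-coumarate ligase (4CL) bring phenylalanine into the pathway of lignin, flavonoids and other phenolics. Of 12 listed loci 7 were tested, 6 rose and 0 fell, with a median of 1.74 (85.7% called, against 10.4% of all tested loci). Solyc03g117870, listed as a 4CL, had 981, 1154 and 1037 under picloram and 332, 270.1 and 210.3 in mock, a difference of 1.98 ± 0.15 (SE, adjusted p = 1.02e-05). Solyc06g068650, also listed as a 4CL, had 50.5, 67.9 and 69.4 under picloram and 12.7, 2.43 and 10.9 in mock (2.94 ± 0.48 SE, adjusted p = 0.00202). The first was abundant in both groups and the second near the minimum in mock, and at neither did the groups overlap. Of the PAL loci, Solyc09g007910 had 138, 93.5 and 107 under picloram and 23.4, 40.9 and 36.5 in mock (1.74 ± 0.26 SE, adjusted p = 0.00113). Solyc05g056170 had 24.4, 51.3 and 23.98 under picloram and 3.32, 3.61 and 14.2 in mock (2.26 ± 0.47 SE, adjusted p = 0.00928), and its call ended without picloram 2 (adjusted p 0.0512, the highest over the alternatives, with 0.0015 the lowest). Both had higher values in each picloram library. The PAL loci of highest level, Solyc09g007920 with 2994, 3253 and 2980.5 under picloram and 1153, 1281 and 1014 in mock (1.42 ± 0.11 SE, adjusted p = 1.02e-05) and Solyc10g086180 with 978, 956 and 1007 under picloram and 330.1, 256 and 301 in mock (1.73 ± 0.11 SE, adjusted p = 3.75e-06), were named after their values were seen.

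Of 14 tested flavonoid loci, which act downstream, 1 rose (7.14%, against 10.4% of all tested loci). Solyc02g083860, listed as flavanone 3-hydroxylase, had 355, 480.5 and 388 under picloram and 326, 205 and 254 in mock (0.65 ± 0.18 SE, adjusted p = 0.034), with picloram 1 only just above mock 1. The chalcone synthases, which open the flavonoid branch, were not called, at 0.20 and 0.48. Of 8 tested carotenoid loci 3 rose and 0 fell (37.5% called, against 10.4% of all tested loci). Solyc03g031860, listed as phytoene synthase, the first committed step, had 114, 103 and 111 under picloram and 16.3, 23.6 and 20.6 in mock (2.39 ± 0.29 SE, adjusted p = 0.000271), and its paralog Solyc02g081330 had 41.8, 49.2 and 59.3 under picloram and 24.7, 23.8 and 17.9 in mock (1.14 ± 0.31 SE, adjusted p = 0.034). Both were higher throughout, the first by the wider margin. Solyc06g036260, listed as carotene hydroxylase, which makes xanthophylls, had 203, 241 and 208 under picloram and 60.6, 66.5 and 80.9 in mock (1.64 ± 0.23 SE, adjusted p = 0.000793). Here too the groups were far apart. Calls that ended with 1 library left out were those of Solyc02g083860 without picloram 2 or 3 or mock 2 or 3 (0.00886 to 0.139) and Solyc02g081330 without picloram 1, 2 or 3 or mock 2 or 3 (0.0105 to 0.124), with adjusted p over the alternatives in brackets.

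**Figure D5:**
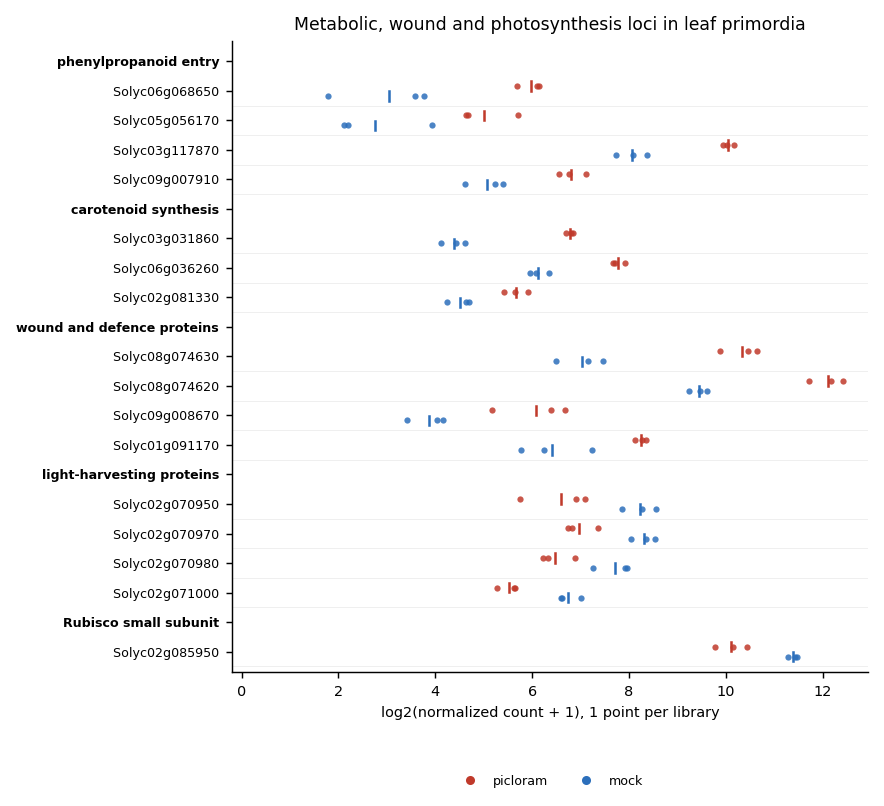
Points are single libraries (picloram red, above; mock blue, below) on a log2(normalized count + 1) axis, with group means as bars. Phenylpropanoid, carotenoid and wound loci lie to the right under picloram, and light-harvesting and Rubisco loci to the left.

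Lists of leaf form, stomata and cuticle together gave 3 calls of 34 tested loci (8.82%), near the 10.4% of all tested loci. In the lists below with no call by limma, the loci at an unadjusted p under 0.05 numbered 1 of 6 for KNOX and BELL, 1 of 4 for boundary factors, 0 of 5 for YABBY and 0 of 2 for stomata. The widest change was at a TCP factor, of a family known for setting leaf growth and leaflet number: Solyc12g014140 had 24.2, 29.5 and 36.4 under picloram and 149, 225 and 127 in mock, a difference of -2.41 ± 0.28 (SE, adjusted p = 0.000224). All picloram libraries were below the lowest mock library by more than 3-fold. The other 5 of 6 tested TCP loci differed by -1.09 to 0.50. Of 6 tested KNOX and BELL loci none was called, and the most abundant, Solyc07g007120, had 439.7, 516 and 643 under picloram and 600.0, 615 and 453 in mock (adjusted p = 0.908). Nor was any of 4 boundary factors, with Solyc09g010840 at 142, 179.9 and 164 under picloram and 234, 125 and 156 in mock (adjusted p = 0.95), or of 5 YABBY loci, with Solyc01g091010 at 470.4, 451 and 446 under picloram and 449, 578 and 536 in mock (adjusted p = 0.608). The groups overlapped at all of these. Of 6 HD-ZIP III loci, factors of upper leaf identity and vasculature, 1 rose: Solyc02g024070 had 274, 256 and 276 under picloram and 183, 139.5 and 178 in mock (0.69 ± 0.17 SE, adjusted p = 0.0186). Its groups were apart.

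In stomatal patterning 0 of 2 tested loci were called, and Solyc03g007410 had 19.0, 22.6 and 25.9 under picloram and 24.9, 31.3 and 32.4 in mock (adjusted p = 0.632). Of 5 tested loci of cuticle and trichomes 1 rose, Solyc01g091630, with 473, 405 and 474 under picloram and 355, 323 and 312 in mock (0.45 ± 0.12 SE, adjusted p = 0.0322). This was a small shift, without overlap. Its call and that of the HD-ZIP III locus ended with 1 library left out, for Solyc01g091630 without picloram 1 or 3 or mock 2 or 3 (0.0156 to 0.105) and for Solyc02g024070 without picloram 1, 2 or 3 or mock 2 (0.00939 to 0.0809), with adjusted p over the alternatives in brackets.

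Lists of growth machinery together gave 3 calls of 31 tested loci (9.68%), near the 10.4% of all tested loci. None of 12 tested cyclins, cyclin-dependent kinases and inhibitors was called by limma, although 4 had an unadjusted p under 0.05, and 0 or 1 was called in each alternative. The most abundant, Solyc04g078470, had 288, 318 and 292 under picloram and 379, 392 and 473 in mock (adjusted p = 0.178). Of 10 tested expansins, which loosen cell walls, 1 rose: Solyc06g049050 had 309, 368 and 283 under picloram and 91.2, 217 and 105 in mock (1.31 ± 0.26 SE, adjusted p = 0.00632). Mock 2 was the highest mock library and still below all picloram libraries. Among wall hydrolases, 2 of 3 tested endoglucanases rose and 0 of 6 xyloglucan endotransglucosylases (XTH) were called. Solyc09g010210 had 115, 190.3 and 231 under picloram and 93.3, 64.4 and 98.9 in mock (1.02 ± 0.28 SE, adjusted p = 0.0364), and Solyc08g082250 had 129, 136 and 129.9 under picloram and 87.2, 82.9 and 113 in mock (0.49 ± 0.14 SE, adjusted p = 0.043). Both were narrow separations, and the calls ended with 1 library left out, for Solyc09g010210 without picloram 2 or 3 or mock 2 or root mock 1 (0.0117 to 0.14) and for Solyc08g082250 without picloram 1, 2 or 3 or mock 1 or 2 or root 2,4-D 1 or 2 or root mock 1 or 2 (0.0125 to 0.135), with adjusted p over the alternatives in brackets.

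Heat shock loci were read for signs of stress in handling. Of 11 tested, 2 rose and 1 fell (27.3% called, against 10.4% of all tested loci). The chaperone Solyc06g076020 had 62.8, 46.8 and 37.5 under picloram and 9.27, 35.7 and 11.8 in mock (1.53 ± 0.37 SE, adjusted p = 0.0195). The heat shock factor Solyc02g090820 had 43.1, 49.2 and 51.1 under picloram and 28.1, 17.7 and 16.05 in mock (1.21 ± 0.25 SE, adjusted p = 0.00811), and the factor Solyc09g009100 had 30.0, 30.0 and 22.4 under picloram and 67.0, 63.5 and 55.3 in mock (-1.15 ± 0.23 SE, adjusted p = 0.00623). The factors moved in opposite directions without overlap, and mock 2 came near the picloram libraries at the chaperone, whose call ended with 1 library left out: Solyc06g076020 without picloram 1 or 2 or mock 1 or 3 (0.000273 to 0.0838), with adjusted p over the alternatives in brackets. The summed level of all 14 heat shock loci was 11443 to 14258 under picloram and 9738 to 10556 in mock, most of it at 1 chaperone. None of 3 loci of nitrate assimilation was called by limma, 1 having an unadjusted p under 0.05, with Solyc11g013810 at 100.4, 43.4 and 66.2 under picloram and 37.9, 45.0 and 46.3 in mock (adjusted p = 0.134).

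The 13 loci listed as stable between conditions were read in the same way. All 13 were tested, 2 fell and 0 rose (15.4% called, against 10.4% of all tested loci), and their median was -0.25. Solyc04g081490 had 105, 153 and 97.0 under picloram and 214, 377 and 348 in mock (-1.38 ± 0.22 SE, adjusted p = 0.00157), and Solyc06g009970 had 1133, 1053 and 1031 under picloram and 1249.6, 1430.0 and 1579 in mock (-0.40 ± 0.10 SE, adjusted p = 0.0302). Groups were apart at both, and the second call ended with 1 library left out, for Solyc06g009970 without picloram 1, 2 or 3 or mock 2 or 3 or root mock 1 or 2 (0.00535 to 0.151), with adjusted p over the alternatives in brackets. It ended also with equal library totals.

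Outside the lists, the loci of smallest adjusted p carry no name in the files. Solyc03g117590 had 1599, 2383 and 1868 under picloram and 215, 271 and 235 in mock (3.00 ± 0.16 SE, adjusted p = 6.96e-07), and Solyc09g007765 had 2742, 2781 and 2168 under picloram and 373, 477 and 368 in mock (2.66 ± 0.14 SE, adjusted p = 6.96e-07). Solyc08g082670 fell, with 18.2, 25.1 and 24.03 under picloram and 190.2, 170.1 and 179 in mock (-2.96 ± 0.19 SE, adjusted p = 3.75e-06), as did Solyc12g044310, with 22.8, 23.9 and 18.5 under picloram and 106, 104 and 103 in mock (-2.22 ± 0.17 SE, adjusted p = 1.02e-05). At all 4 the libraries of a group lay close together and far from the other group.

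The leaf response was set against that of root tips on 2,4-D, in the same model. Of 90 listed loci called in leaf, 59 were tested in both tissues, and 17 of them had a leaf response that differed from the root response. Of the 1209 loci called in leaf and tested in both tissues, listed or not, 282 did (23.3%), and 485 of all 11313 loci tested in both (4.29%). Since a called leaf change enters the difference, the share among called loci is the one to read beside the 17. The widest of the 17 lay at clock, carotenoid and phenylpropanoid loci. The FKF1-listed Solyc01g005300 changed by -3.61 in leaf and by -0.20 in root, a difference of -3.41 ± 0.37 (SE, adjusted p = 0.000154). Carotene hydroxylase Solyc06g036260 changed by 1.64 in leaf and by -2.10 in root, a difference of 3.74 ± 0.36 (SE, adjusted p = 6.4e-05). PAL locus Solyc10g086180 changed by 1.73 in leaf and by -0.85 in root, a difference of 2.58 ± 0.18 (SE, adjusted p = 6.79e-06). Of 184 listed loci tested in both tissues, 25 differed: these 17, and 8 more that were not called in leaf. No share over all loci not called in leaf was computed beside the 8. Among the 8 was the Aux/IAA locus of highest level, Solyc04g076850. It changed by 0.16 in leaf and by 0.96 in root, a difference of -0.80 ± 0.19 (SE, adjusted p = 0.0297). Over the listed loci called in leaf, 11 differed without root 2,4-D replicate 1, 13 without root 2,4-D replicate 2, 12 without root mock replicate 1 and 9 without root mock replicate 2. Tissue, compound, plant age, light and application change together between these experiments and cannot be told apart.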

How the data were processed

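Leaf primordia (3 picloram, 3 mock) and root tips (2 2,4-D, 2 mock) of tomato line M82 were profiled with 3′ end libraries, per the labels' protocols. The submitters' processing notes name Salmon 0.8.2 and DESeq2, with no role stated. Their genome build is not given in the sources used here, nor is their annotation. The deposited table holds normalized counts, a signal that the authors scaled between libraries, with 1 column per sample. Low values were whole multiples of a step in 57.6% to 82.6% of cases (tolerance 0.1, up to 20 reads), so reads were not recovered and no count test was run. The total over that step was 1.69 to 2.39 M per leaf library and 2.32 to 3.47 M per root library, a rough guide to depth.

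Values were analysed as log2(value + 1) with limma 3.58.1 (R 4.3.3), using a mean-variance trend and 1 mean per group over all 10 libraries (6 residual and 6.62 prior degrees of freedom). A locus was tested with at least 10 in 2 of the 6 leaf libraries, and tests were 2-sided. The leaf response minus the root response was a contrast in the same model, for loci that passed the minimum in both tissues. Members and lists were chosen with earlier results of these data known, so the lists got no test of their own and give no independent support. Named loci are, in each list, up to 4 called members of largest change per direction, or the most abundant where none was called. Outside the lists, they are the 2 non-overlapping loci of smallest adjusted p per direction. No naming source was at hand: the 41476 rows of the RefSeq table for assembly SLM_r2.1 hold 0 Solyc identifiers. As a check of recall, 187 of 210 loci in 17 lists lie on a chromosome that carries a RefSeq symbol of the family, but only 4 of 12 for JAZ. On simulated data of 14213 loci, the leaf test recovered 56% of 2-fold and 99% of 4-fold changes, with 1.9% of calls false. The simulation used 1 dispersion of 0.03 for all loci, set rather than estimated from these data. It changed 100 loci per fold, all with a mock mean above the test minimum. The rates therefore do not cover the 144 loci called higher here with a mock mean under 10, nor a response of this breadth. Of 11 listed loci whose values equal those of another locus, 0 were tested. The 21 alternatives covered pseudocount, minimum, scaling, model and single libraries. The 4 that leave out a root library were chosen after the data were seen.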

Additional observations from a re-analysis of the deposited data

Results flagged for a closer look

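At 17 listed loci that were called in leaf, and at 8 that were not, the change in picloram leaves, minus the change in 2,4-D root tips, passed limma's test of that difference (adjusted p from 6.79e-06 to 0.0466, over all loci tested in both tissues). The differences, as log2 values with the leaf change first and the root change second, follow by role. Tissue, compound, plant age, light and application change together here and cannot be told apart.

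Among clock and photoperiod loci, Solyc10g005080 differed by 2.61 (3.06 in leaf, 0.45 in root). Solyc02g088070 differed by 1.61 (1.46 in leaf, -0.15 in root). Solyc04g049670 differed by -2.33 (-2.02 in leaf, 0.31 in root), and Solyc04g071990 by -2.56 (-2.16 in leaf, 0.40 in root). Solyc12g056650 differed by -2.64 (-1.77 in leaf, 0.87 in root), and Solyc01g005300 by -3.41 (-3.61 in leaf, -0.20 in root).

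Among phenylpropanoid and carotenoid loci, Solyc09g007910 differed by 1.82 (1.74 in leaf, -0.08 in root), and Solyc09g007920 by 1.05 (1.42 in leaf, 0.37 in root). Solyc10g086180 differed by 2.58 (1.73 in leaf, -0.85 in root), and Solyc03g117870 by 1.62 (1.98 in leaf, 0.36 in root). Solyc03g031860 differed by 1.93 (2.39 in leaf, 0.47 in root), and Solyc06g036260 by 3.74 (1.64 in leaf, -2.10 in root).

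Among hormone and growth loci, the GH3 locus Solyc07g063850 differed by 1.53 (1.10 in leaf, -0.43 in root), and the jasmonate locus Solyc02g085730 by 1.69 (1.55 in leaf, -0.13 in root). The influx carrier Solyc09g014380 differed by 0.95 (0.72 in leaf, -0.23 in root). The endoglucanase Solyc09g010210 differed by 1.88 (1.02 in leaf, -0.86 in root), and the cuticle locus Solyc01g091630 by 0.76 (0.45 in leaf, -0.31 in root).

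Of the 8 loci not called in leaf, added after their values were seen, the Aux/IAA locus Solyc04g076850 differed by -0.80 (0.16 in leaf, 0.96 in root), and the PIN locus Solyc10g080880 by -1.21 (-0.03 in leaf, 1.18 in root). The EIL factor Solyc06g073730 differed by -2.95 (-0.24 in leaf, 2.71 in root), and the KNOX and BELL list member Solyc07g007120 by -2.56 (-0.07 in leaf, 2.50 in root). The cyclin list member Solyc04g078470 differed by -1.27 (-0.46 in leaf, 0.81 in root), and the XTH locus Solyc01g099630 by 0.92 (-0.12 in leaf, -1.04 in root). The PR1 locus Solyc01g106620 differed by -5.97 (-0.62 in leaf, 5.35 in root). The strigolactone locus Solyc08g062950 differed by -10.1 (-4.38 in leaf, 5.72 in root), a value that rests on libraries listed at 0 and is no bound.

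With 1 library left out, 7 of the 17 differences lost the call at least once: those of Solyc09g014380, Solyc01g091630, Solyc09g010210, Solyc04g071990, Solyc02g088070, Solyc03g031860 and Solyc09g007910. Of the 8, those of Solyc04g076850, Solyc10g080880, Solyc06g073730, Solyc04g078470 and Solyc01g099630 did.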

How the results depend on the processing

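The number of loci called stayed within 1.5 times of 1494 under pseudocount, minimum, scaling and model alternatives, with 1 exception for the lower calls, which numbered 493 without the mean-variance trend, against 774 with it. With 1 library left out, 900 to 1651 loci were called, 425 to 756 higher and 471 to 895 lower, with counts lower by over 1.5 times without picloram 2 (900 called, 425 higher, 475 lower) and, for the lower calls, without mock 2 (471). Of 76 called loci that the naming rule gave, 45 kept the call in every alternative in which they were tested, and 30 lost it without at least 1 library. Without the trend 15 lost it, and with a pseudocount of 4 only 1 did. None of the 76 changed direction. Of uncalled loci, Solyc10g084150 ranged from -0.12 to 0.19 with 1 library left out, negative without picloram 1 or mock 3. Solyc07g007120 turned to 0.021 with equal library totals and 0.031 with quantile normalization and ranged from -0.21 to 0.065 with 1 library left out. Solyc09g010840 turned to 0.045 with equal totals and ranged from -0.24 to 0.21 with 1 library left out. The cause was not tested. Among loci called in leaf, the 17 differences between leaf and root numbered 9 to 19 over the alternatives, 9 and 11 without root mock replicate 2 and root 2,4-D replicate 1.

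Replicate numbers do not pair the samples: deviations of same-numbered picloram and mock libraries correlated at 0.096, 0.006 and 0.002 across loci, and not every library correlated best with its own number. With the number as a block, 1596 loci were called (831 higher, 765 lower), of which 1208 were also called without it. Leaf libraries alone and the block could give no leaf-root difference.

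The files hold no read counts, so counting error could not be set beside low values. Loci that reached 10 in fewer than 2 leaf libraries were not tested.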
